A study of Mus musculus with 40 samples.

Results

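The macrophage and monocyte genes described here are 35 gene symbols, taken from a list of markers of these cells, out of 23420 gene symbols counted in each library. All 35 were found in the count files and all passed the filter on low counts, in mRNA as in Argonaute-bound RNA. The list holds genes of the macrophage lineage and also genes that other cells use: Lyve1 is made by lymphatic endothelium, MHC class II by dendritic and B cells, Ptprc and Cd53 by all leukocytes, and Ccl2 by many stromal cells. The data come from 20 mouse hearts that carried a transgene for miR-378a or no transgene, and the design crosses this genotype with pressure overload of the left ventricle. A library of polyadenylated RNA (mRNA) was made from each heart, and a further library was made of the RNA that came down with Ago2, the Argonaute protein that carries microRNAs in the RNA-induced silencing complex (RISC).

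All mice were of the FVB/N strain, are labelled male and 12 weeks old (8 to 12 weeks in the series text), and the tissue was the heart without its right ventricle. The 4 groups were 7 transgenic hearts after transverse aortic constriction (TG TAC), 7 non-transgenic hearts after the same operation (ntg TAC), 3 transgenic hearts after a sham operation (TG sham) and 3 non-transgenic sham hearts (ntg sham). Constriction lasted 2 weeks. The promoter that drives the transgene, the cells that express it and the number of founder lines are not given in the sources used here. Mir378 had 0 counts in all 40 libraries, so the labelled genotype could not be checked on the transgene's product. The Y-linked genes Ddx3y, Kdm5d, Eif2s3y and Uty together stood at 79.9 to 122 CPM (the reads counted in a gene, scaled to a common library total) in the 14 TAC mRNA libraries, and at 0.216 to 4.88 CPM in the 6 sham libraries. Xist, made from the inactive X chromosome, went the other way, at 1.03 to 3.48 CPM in TAC hearts and 117 to 142 CPM in sham hearts. High Xist with little Y-linked RNA in the 6 sham hearts is the pattern of female tissue and goes against their label as male. Operation and sex-linked RNA therefore cannot be told apart, and within each operation the ranges of TG and ntg hearts overlapped.

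Heart muscle holds a standing population of macrophages, and monocytes from the blood add to it after injury. Survival and growth of these cells depend on the receptor Csf1r and its ligands, their identity on the transcription factor PU.1, encoded by Sfpi1, and entry of monocytes on the receptor Ccr2 and its ligand Ccl2. Resident macrophages of the heart are known for scavenger receptors such as Mrc1, Cd163 and Lyve1 and for complement C1q, and recruited monocytes for Ccr2.

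Per kilobase of exon, which allows levels to be set between genes, the mRNA levels of the members differed over a wide range. Cd74, the chain that guides MHC class II, led with a mean of 95.1 CPM per kilobase in TG TAC and 98.3 in ntg TAC hearts. Lyz2, a lysozyme of myeloid cells, had 62.9 CPM per kilobase in TG TAC and 84.4 in ntg TAC hearts, close to the 3 C1q genes. The lowest of the 35 was Ccr2, at 0.224 CPM per kilobase in TG TAC and 0.403 in ntg TAC hearts, which is 5 to 22 reads and 15 to 31 reads per library. Of single markers of other leukocytes, the T cell gene Cd3e was at 0.732 to 1.33 CPM in TG TAC hearts and 0.843 to 1.34 CPM in ntg TAC hearts, and the neutrophil gene S100a8 at 0 to 0.227 CPM and 0 to 0.0705 CPM in the same groups. The range of Cd3e overlaps that of Ccr2, and the 9 neutrophil genes together summed to 29.0 to 53.9 CPM in TG TAC and 28.5 to 49.0 CPM in ntg TAC hearts. Only 3 of these 9 genes passed the filter on low counts in mRNA, so the sum is not spread over all 9.

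PU.1 binds purine-rich sites around the letters GAGGAA. To show what such letters look like in promoters of these genes, 5 of those that hold them within 120 bases of the start were picked for print: Mrc1, Laptm5, Itgam and Fcgr3, which were called lower in TG TAC mRNA, and C1qb, on which the Ago2 results turn. The sequences are from RefSeq on GRCm38.p6 and give the 120 bases before the transcription start, 5′ to 3′ on the strand of the gene, with GAGGAA or its reverse complement TTCCTC in capitals. Mrc1 lies at chr2:14229294-14229413 on the plus strand, Laptm5 at chr4:130913196-130913315 on the plus strand, Itgam at chr7:128062520-128062639 on the plus strand, Fcgr3 at chr1:171059404-171059523 on the minus strand and C1qb at chr4:136886201-136886320 on the minus strand.
Mrc1: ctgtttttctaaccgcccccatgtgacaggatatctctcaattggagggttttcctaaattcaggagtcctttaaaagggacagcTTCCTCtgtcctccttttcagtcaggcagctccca
Laptm5: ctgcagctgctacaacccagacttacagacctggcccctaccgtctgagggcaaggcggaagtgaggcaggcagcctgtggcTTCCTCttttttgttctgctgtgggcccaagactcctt
Itgam: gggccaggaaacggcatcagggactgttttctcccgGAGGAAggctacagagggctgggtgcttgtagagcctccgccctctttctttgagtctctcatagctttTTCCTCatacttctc
Fcgr3: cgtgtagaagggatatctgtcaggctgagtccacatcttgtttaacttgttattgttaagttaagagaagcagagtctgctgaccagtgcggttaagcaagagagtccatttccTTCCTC
C1qb: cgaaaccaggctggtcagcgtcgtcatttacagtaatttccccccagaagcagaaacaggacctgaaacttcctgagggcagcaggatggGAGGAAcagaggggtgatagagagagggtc
RefSeq entries were matched for 25 of the 35 members, with 28 starts. In the 250 bases before the start, GAGGAA on either strand was present in 14 of these 28 promoters (50.0%), and in 23.3% of all 32851 promoters. The longer form GAGGAAGT, each match of which is also a match of GAGGAA, was in 1 of 28, that of C1qc, and in 2.44% of all. In the 250 bases the letters were present in 6 of the 12 genes with an entry that were called lower in TG TAC mRNA and in 7 of the 13 others, and in the 120 bases in 4 of 12 and 5 of 13. The 8 genes called lower without them in the 120 bases were Lyz2, Cx3cr1, Mpeg1, Cd68, Ctss, Fcer1g, Ccr2 and Ccl6. No binding was measured.

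With pressure overload, the transgene went with lower mRNA of many macrophage genes. In TG TAC against ntg TAC hearts 16 of 35 members fell and 0 rose, as called by edgeR (quasi-likelihood test) at a p below 0.05 after Benjamini-Hochberg adjustment over 14141 genes. Of all genes tested, 11.8% were called lower and 13.5% higher in this comparison. The median log2 fold change was -0.31 over the members and -0.004 over all genes, and 32 of 35 members had a negative value. At an unadjusted p below 0.05, 21 members were lower and 0 higher, and DESeq2 called 16 lower and 0 higher. In whole tissue, fewer cells of a type and less RNA per cell cannot be told apart. The decreases were of moderate size, from 0.20 on the log2 scale in Csf1r to 0.82 in Ccr2, and the groups did not overlap in 4 members (3.52% of all genes were lower without overlap).

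**Figure D1:**
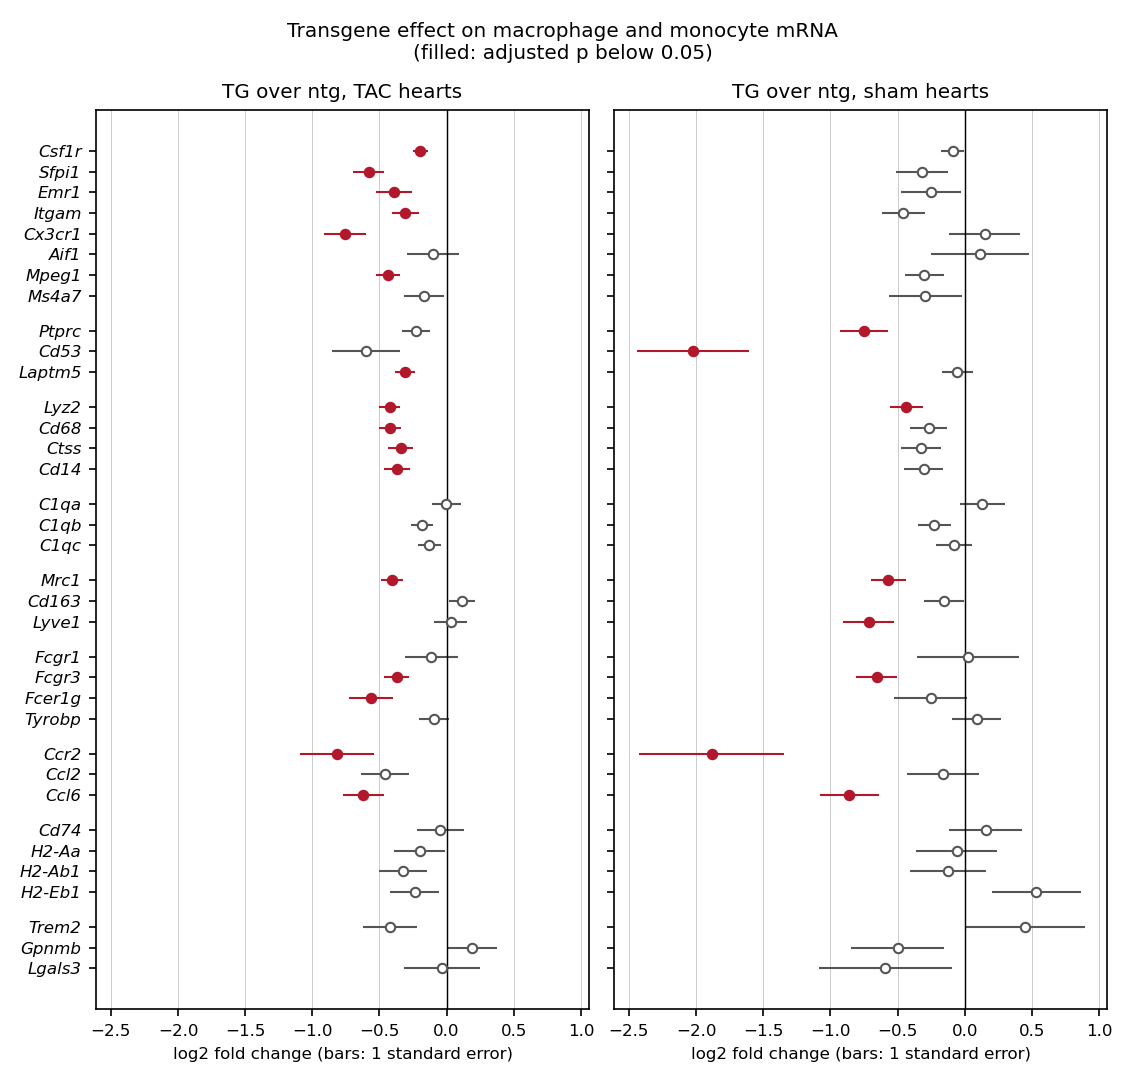
Log2 fold change of mRNA, TG over ntg, for the 35 members in TAC hearts (left, 7 against 7) and sham hearts (right, 3 against 3), with 1 standard error. Members are grouped by role from the lineage genes at the top to the injury-associated genes at the bottom, and filled points passed an adjusted p of 0.05. In TAC hearts 16 filled points lie left of 0, and in sham hearts 8.

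Among the lineage and growth factor genes, 6 of 8 fell. Sfpi1, which encodes PU.1, stood at 3.58, 4.14 and 5.14 CPM in TG TAC hearts (lowest, median and highest of 7), against 4.94, 6.26 and 7.58 CPM in ntg TAC hearts. The ranges overlapped at their edge, and the level fell by 0.58 (SE 0.12, adjusted p = 0.00068). Cx3cr1, the receptor for fractalkine, had 4.47, 7.67 and 9.31 CPM in TG TAC hearts, against 7.95, 11.5 and 16.2 CPM in ntg TAC hearts. The ranges overlapped. Cx3cr1 fell by 0.76 (SE 0.16, adjusted p = 0.000988), to 7.26 ± 1.81 CPM in TG TAC hearts, against 12.2 ± 2.74 CPM in ntg TAC hearts (mean ± SD, n = 7 each). Mpeg1, a pore-forming protein of phagosomes, had 15.0, 18.3 and 20.5 CPM in TG TAC hearts, against 21.4, 24.1 and 27.9 CPM in ntg TAC hearts. Every TG heart lay below every ntg heart, and Mpeg1 fell by 0.44 (SE 0.088, adjusted p = 0.000716). Csf1r, the receptor that these cells need to survive, had 70.6, 78.6 and 92.3 CPM in TG TAC hearts, against 82.8, 92.4 and 98.5 CPM in ntg TAC hearts, and fell by 0.20 (SE 0.057, adjusted p = 0.0122).

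Emr1, which encodes the macrophage antigen F4/80, and Itgam, an integrin chain of myeloid cells, fell by 0.39 and 0.31. Both calls were lost without single hearts: that of Emr1 without ntg TAC replicate 1, 4 or 7 or TG TAC replicate 3, 6 or 7 (adjusted p up to 0.0765), and that of Itgam without ntg TAC replicate 2 or 6 or TG TAC replicate 6 (up to 0.0659). Aif1, a calcium-binding protein of activated macrophages, and Ms4a7 were not called, at -0.10 and -0.17. The ligands of Csf1r were read from a list of chemokines and growth factors that are no members. Csf1, the main ligand, was at 32.3, 45.4 and 51.5 CPM in TG TAC hearts, against 59.3, 66.1 and 80.3 CPM in ntg TAC hearts, with no overlap, and fell by 0.63 (SE 0.097, adjusted p = 4.57e-05). Il34, the other ligand, was not called at -0.06 (SE 0.11, adjusted p = 0.729).

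All 4 lysosome and phagocytosis genes fell by similar amounts. Lyz2 was at 56.9, 67.2 and 77.4 CPM in TG TAC hearts, against 78.7, 89.1 and 96.8 CPM in ntg TAC hearts. Cd68, a lysosomal membrane protein, was at 12.5, 14.03 and 15.6 CPM in TG TAC hearts, against 15.9, 18.2 and 22.9 CPM in ntg TAC hearts. Neither gene overlapped between genotypes, and each was 1.34-fold lower in TG hearts (adjusted p = 0.000254 for Lyz2 and 0.000532 for Cd68). The cathepsin Ctss and the lipopolysaccharide co-receptor Cd14 fell by 0.34 and 0.37 (adjusted p = 0.0094 and 0.00534). Lyz1, a near-identical paralog of Lyz2, was low, at 2.40 to 7.96 CPM in TG TAC and 5.90 to 8.11 CPM in ntg TAC hearts, and reads shared by both were not counted. Of 11 lysosomal enzymes that many cell types express, 1 was called, the cathepsin Ctsl, which rose by 0.16 (adjusted p = 0.0374), and the median over the 11 was -0.07.

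Mrc1, the mannose receptor, was the 1 of 3 resident scavenger receptors that fell. It had 21.7, 24.2 and 33.3 CPM in TG TAC hearts, against 28.5, 34.9 and 36.9 CPM in ntg TAC hearts, a decrease of 1.32-fold (adjusted p = 0.000662). TG TAC replicate 1, the highest, lay inside the ntg range. Cd163, the hemoglobin scavenger receptor, had 10.2, 14.5 and 17.2 CPM in TG TAC hearts, against 10.7, 13.3 and 15.9 CPM in ntg TAC hearts, and its difference was 0.11 (SE 0.094, adjusted p = 0.409). Lyve1, a hyaluronan receptor, had 16.9, 20.1 and 26.1 CPM in TG TAC hearts, against 17.2, 19.5 and 25.7 CPM in ntg TAC hearts, a difference of 0.03 (SE 0.13, adjusted p = 0.897). Both groups covered the same range for these 2 genes.

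The C1q chains, which start the classical complement pathway, were not called. C1qa had 54.1, 58.4 and 97.8 CPM in TG TAC hearts, against 57.1, 66.4 and 74.9 CPM in ntg TAC hearts, a difference of -0.003 (SE 0.11, adjusted p = 0.989). TG TAC replicate 4 was the highest TG heart for 16 of the 35 members. C1qb and C1qc differed by -0.18 (adjusted p = 0.101) and -0.13 (adjusted p = 0.288). MHC class II genes, which present peptides to T cells, were not called either. H2-Aa had 23.9, 26.2 and 33.7 CPM in TG TAC hearts, against 26.7, 33.2 and 34.0 CPM in ntg TAC hearts, a difference of -0.20 (SE 0.19, adjusted p = 0.488), and Cd74, H2-Ab1 and H2-Eb1 lay between -0.33 and -0.05. Whether the called and the uncalled roles differ from each other was not tested.

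**Figure D2:**
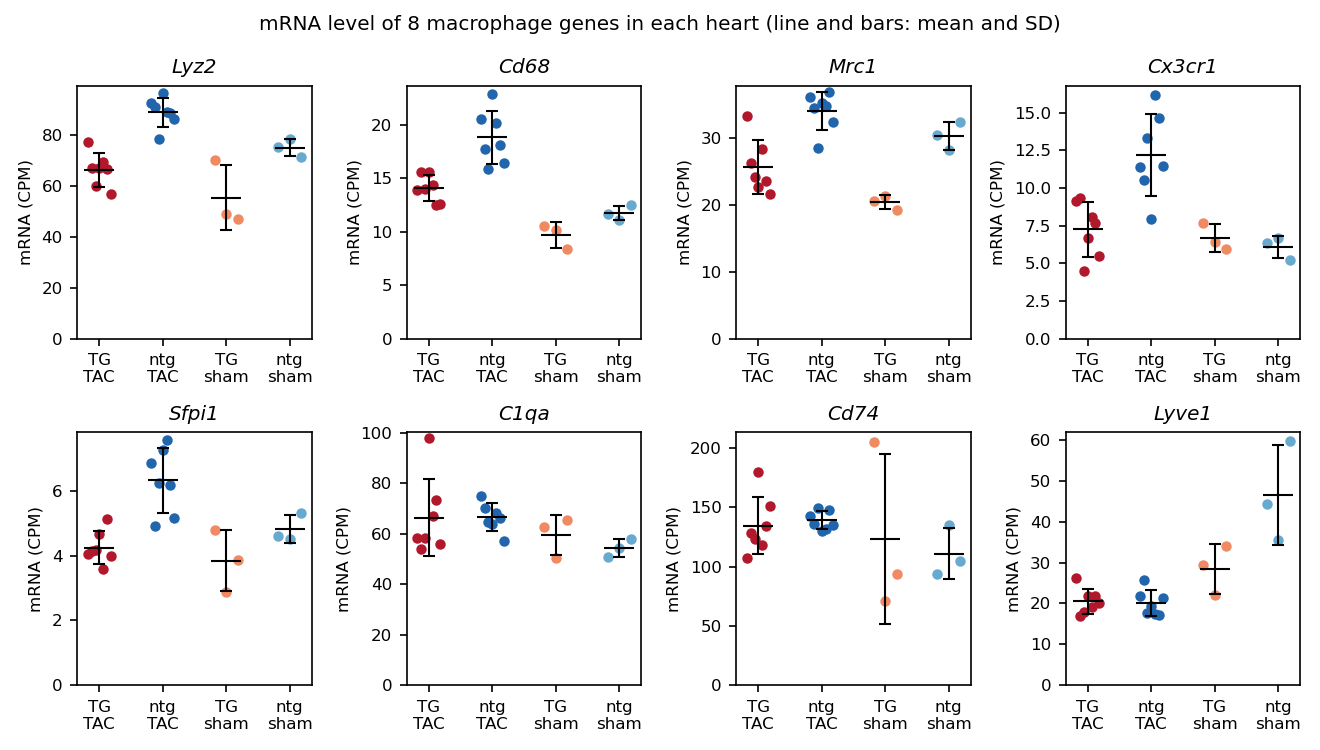
mRNA level in CPM of 8 members in each heart, with the mean and SD of each group. From left to right stand 7 TG TAC, 7 ntg TAC, 3 TG sham and 3 ntg sham hearts. For Lyz2 and Cd68 no TG heart reaches an ntg heart of the same operation, for Mrc1 and Lyve1 this holds in sham hearts, and for Cx3cr1, Sfpi1, C1qa and Cd74 the TAC groups overlap.

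Of the Fc receptors and their signalling adaptors, 2 of 4 fell. Fcgr3, a low-affinity receptor for immunoglobulin G, had 8.17, 9.28 and 11.4 CPM in TG TAC hearts, against 11.0, 12.1 and 14.02 CPM in ntg TAC hearts, and fell by 0.37 (SE 0.096, adjusted p = 0.00599). The shared signalling chain Fcer1g fell by 0.56 (SE 0.17, adjusted p = 0.0155). Fcgr1, the high-affinity receptor, had 1.39, 1.93 and 2.97 CPM in TG TAC hearts, against 1.27, 2.41 and 3.40 CPM in ntg TAC hearts, with full overlap (-0.11, adjusted p = 0.724), and the adaptor Tyrobp was not called at -0.09. Fcgr genes are closely related, and reads that align to more than 1 of them were not counted.

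Of the 3 recruitment genes 2 fell. Ccr2, the receptor of inflammatory monocytes, had 0.316, 0.789 and 1.24 CPM in TG TAC hearts, against 1.05, 1.40 and 1.87 CPM in ntg TAC hearts, and fell by 0.82 (SE 0.27, adjusted p = 0.0299). The call was lost without ntg TAC replicate 1, 3 or 6 or TG TAC replicate 4 or 6 (adjusted p up to 0.0673). Ccl6, a chemokine of myeloid cells in the mouse, fell by 0.62 (SE 0.15, adjusted p = 0.00482). Ccl2, the ligand of Ccr2, had 1.25, 1.51 and 2.97 CPM in TG TAC hearts, against 1.99, 2.60 and 2.96 CPM in ntg TAC hearts, which is -0.46 at an adjusted p of 0.066. Outside the 35 members, the chemokine receptor Ccr1 fell by 1.23 (adjusted p = 0.0146) and the chemokine Ccl9 by 0.44 (adjusted p = 0.0105).

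Laptm5, a lysosomal protein of leukocytes, was the 1 pan-leukocyte gene that fell, by 0.31 (adjusted p = 0.00255), with 30.4 to 37.6 CPM in TG TAC and 37.9 to 45.6 CPM in ntg TAC hearts and no overlap. Ptprc, the leukocyte antigen CD45, had 4.86, 4.92 and 6.62 CPM in TG TAC hearts, against 4.81, 6.42 and 6.89 CPM in ntg TAC hearts, and was at -0.23 with an adjusted p of 0.109. Trem2, a lipid receptor of macrophages in injured tissue, had 2.18, 2.53 and 5.93 CPM in TG TAC hearts, against 2.75, 4.15 and 5.46 CPM in ntg TAC hearts (-0.42, adjusted p = 0.134). Gpnmb, a glycoprotein of lipid-laden macrophages, had 1.94, 2.84 and 3.52 CPM in TG TAC hearts, against 1.38, 2.89 and 3.40 CPM in ntg TAC hearts (0.19, adjusted p = 0.497), and Lgals3, galectin 3, was at -0.04.

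Receptors outside the 35 moved partly with them. Of 11 tested pattern and Fc receptors 4 fell and 1 rose: the scavenger receptors Msr1 and Cd36 fell by 0.62 and 0.33, the nucleic acid sensors Tlr7 and Tlr13 by 0.98 and 0.93, and Tlr4 rose by 0.44. The complement receptor C3ar1 fell by 0.94 (adjusted p = 2.88e-05), the 1 of 8 complement genes that was called. Markers of some other cell types were lower as well in TG TAC hearts, where 11.8% of all genes were called lower. There 5 of 8 endothelial, 2 of 8 fibroblast and 2 of 8 tested lymphocyte genes fell. So did 1 of 3 tested neutrophil (S100a9), 1 of 4 tested mast cell (Kit) and 3 of 9 adipocyte genes. Of the tested dendritic cell (5), lymphatic endothelial (5), smooth muscle (5) and erythroid (2) genes 0 were called. Of 6 cardiomyocyte genes 1 rose and 1 fell. The 8 endothelial genes summed to 1105 to 1212 CPM in TG TAC hearts and 1265 to 1353 CPM in ntg TAC hearts, and the 12 lymphocyte genes to 5.36 to 8.34 CPM and 6.26 to 18.1 CPM in the same groups. The part of these cell types in the members' decrease was not tested. With the adipocyte level of each library as a covariate, 15 of the 16 members were still called lower, Itgam being lost (adjusted p = 0.0625).

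In sham hearts 8 of 35 members fell with the transgene and 0 rose (9.41% and 9.17% of all genes). At an unadjusted p below 0.05 there were 12 lower and 0 higher, and DESeq2 called 8 lower and 0 higher. The median was -0.25 over the members and -0.009 over all genes. Lyz2, Mrc1, Fcgr3, Ccr2 and Ccl6 were called in both operations, which is 5 of the 16 called in TAC and 5 of the 8 called in sham, from separate hearts. In 11 members all TG sham hearts lay below all ntg sham hearts, which 17.6% of all genes did with 3 hearts a group.

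Mrc1 had 20.6, 21.4 and 19.2 CPM in TG sham hearts, against 30.4, 28.2 and 32.4 CPM in ntg sham hearts, and fell by 0.57 (SE 0.13, adjusted p = 0.00314). Fcgr3 had 10.1, 7.04 and 7.64 CPM in TG sham hearts, against 12.5, 11.1 and 15.6 CPM in ntg sham hearts, and fell by 0.65 (adjusted p = 0.00409). Neither overlapped between genotypes. Lyz2 had 70.4, 49.2 and 46.9 CPM in TG sham hearts, against 75.6, 78.5 and 71.7 CPM in ntg sham hearts, and fell by 0.43 (adjusted p = 0.0129), a call that was lost without TG sham replicate 2 or 3 (up to 0.087). TG sham replicate 1 was the highest TG sham heart for 22 of the 35 members.

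Ptprc had 3.25, 3.10 and 3.68 CPM in TG sham hearts, against 4.51, 7.12 and 5.24 CPM in ntg sham hearts, and fell by 0.75 (SE 0.18, adjusted p = 0.00436). Cd53, a tetraspanin of leukocytes, showed the largest difference of the 35, with 0.606, 0.986 and 0.539 CPM in TG sham hearts, against 3.36, 3.78 and 1.72 CPM in ntg sham hearts. It fell by 2.03 (SE 0.42, adjusted p = 0.00138), and rests on 6 to 14 reads per library in TG sham and 19 to 35 reads in ntg sham hearts. Ccr2 had 0.165, 0.704 and 0.0899 CPM in TG sham hearts, against 1.15, 1.73 and 0.814 CPM in ntg sham hearts, from 1 to 10 reads and 9 to 16 reads per library. Its call (-1.89, adjusted p = 0.016) was lost without ntg sham replicate 2 or TG sham replicate 1 or 3 (up to 0.0929), and its value ran from -3.09, without TG sham replicate 2, to -1.49, without TG sham replicate 1. Ccl6 had 17.3, 11.6 and 14.6 CPM in TG sham hearts, against 28.0, 20.4 and 30.5 CPM in ntg sham hearts, and fell by 0.86 (adjusted p = 0.00958, and 0.0531 without ntg sham replicate 3).

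Lyve1 had 29.3, 22.0 and 34.1 CPM in TG sham hearts, against 44.4, 35.6 and 59.8 CPM in ntg sham hearts. It fell by 0.72 (SE 0.19, adjusted p = 0.0106), and the call was lost without ntg sham replicate 3 or TG sham replicate 2 (up to 0.0873). Of the other lymphatic endothelial genes, Reln also fell (-0.49, adjusted p = 0.0478) while Prox1, the factor that defines these vessels, was at -0.03 (adjusted p = 0.904). Of the 8 lineage genes 0 were called in sham hearts by edgeR or by DESeq2, and 2, Itgam and Mpeg1, were lower at an unadjusted p below 0.05 (adjusted p = 0.0512 for Itgam). Cx3cr1 had 7.71, 6.41 and 5.93 CPM in TG sham hearts, against 6.33, 6.69 and 5.24 CPM in ntg sham hearts, a difference of 0.15 (SE 0.26, adjusted p = 0.747). Class II levels varied most among TG sham hearts: Cd74 had 206, 70.6 and 93.7 CPM there, against 93.7, 135 and 105 CPM in ntg sham hearts.

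The sham comparison also differs in adipocyte RNA. Adipoq, which encodes adiponectin, had 1.32, 1.90 and 0.270 CPM in TG sham hearts, against 13.9, 14.5 and 17.5 CPM in ntg sham hearts, and the mean log2 level of 9 adipocyte genes was 1.31 to 2.04 in TG sham and 4.34 to 4.57 in ntg sham hearts. All 9 adipocyte genes were tested and 6 fell with the transgene, and the ranges named next are those of the mean level. These ranges did not overlap, so among sham hearts this level cannot be told apart from the genotype. With the adipocyte level as a covariate, 1 member, Cd53, was called lower in place of 8. The adjusted p of the other 7 then lay between 0.0569 for Fcgr3 and 0.208 for Ccl6, at log2 fold changes between -2.17 for Ccr2 and -0.53 for Lyz2. In a fit of the sham hearts alone, 5 members were called lower. From the list of pattern and Fc receptors, Msr1, Cd36, Tlr13, Fcgr2b, Mertk and Axl fell in the same comparison, 6 of 11 tested.

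The transgene effect was set against itself between operations, as the difference of both effects. Of the 35 members 0 passed in either direction in edgeR, 3 were higher and 1 lower at an unadjusted p below 0.05, and DESeq2 called 0. Over all genes 0.0707% were called higher and 0.0141% lower. The member with the largest negative value was Cx3cr1, for which the effect in TAC was 0.90 log2 units below that in sham (-0.90, SE 0.31, adjusted p = 0.286). Lyve1 (0.75, adjusted p = 0.224), Cd53 (1.43, adjusted p = 0.298) and Ptprc (0.52, adjusted p = 0.372) had the other values with an unadjusted p below 0.05. A member called in 1 operation only, such as Cd68 in TAC or Lyve1 in sham, was thus not shown to differ between them.

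Pressure overload itself went with higher mRNA of part of the list in both genotypes. These comparisons share their hearts with those above, and carry the difference in Xist and Y-linked RNA. In TG TAC against TG sham hearts 9 members rose and 2 fell (6.57% and 6.56% of all genes). In ntg TAC against ntg sham hearts 10 members rose and 2 fell (8.41% and 9.31% of all genes). The median over the members was 0.25 in TG and 0.30 in ntg hearts, against -0.004 and -0.02 over all genes. These counts depend on single sham hearts: without TG sham replicate 3, 4 members rose in TG hearts, without TG sham replicate 1, 1 fell, and without ntg sham replicate 1 or 2, 6 rose in ntg hearts.

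**Figure D3:**
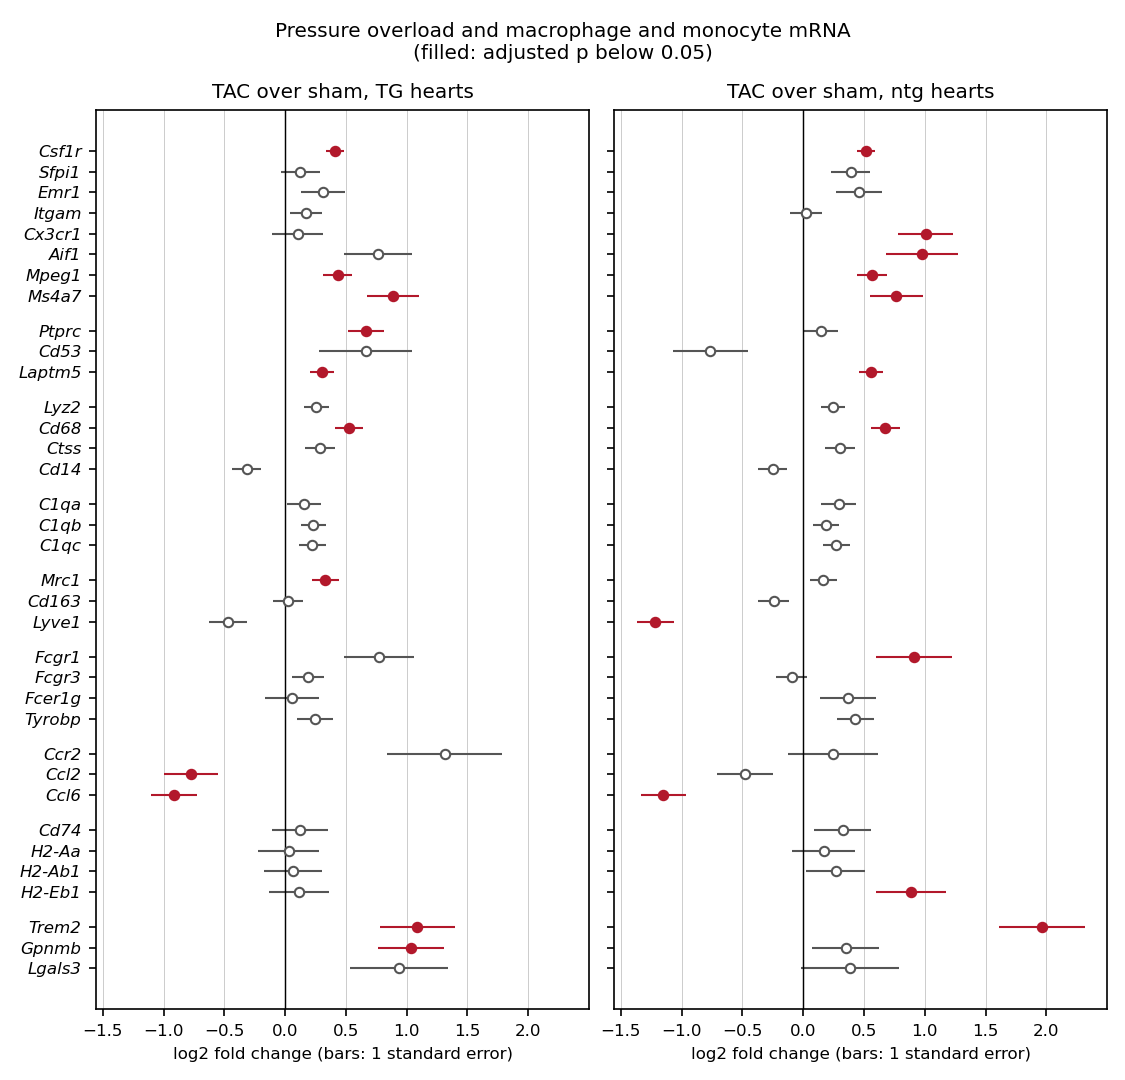
Log2 fold change of mRNA, TAC over sham, for the 35 members in TG hearts (left) and ntg hearts (right), with 7 TAC and 3 sham hearts in each and 1 standard error. Filled points passed an adjusted p of 0.05. Csf1r, Cd68 and Trem2 lie right of 0 and Ccl6 left of 0 in both genotypes.

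Csf1r had 70.6, 78.6 and 92.3 CPM in TG TAC hearts (lowest, median and highest), against 63.6, 56.3 and 60.1 CPM in TG sham hearts, and rose by 0.41 (SE 0.075, adjusted p = 0.00132). In ntg TAC hearts it had 82.8, 92.4 and 98.5 CPM, against 61.9, 63.0 and 66.6 CPM in ntg sham hearts, and rose by 0.52 (SE 0.076, adjusted p = 6.6e-05). Cd68 rose by 0.53 in TG hearts (adjusted p = 0.00411), which had 10.6, 10.2 and 8.36 CPM after sham, and by 0.68 in ntg hearts (adjusted p = 0.000277), which had 11.7, 11.1 and 12.5 CPM after sham. The TAC hearts lay above all sham hearts for both genes in both genotypes. Laptm5, Mpeg1 and Ms4a7, a membrane protein of macrophages, also rose in both genotypes, Ms4a7 by 0.89 in TG hearts (adjusted p = 0.00858, and 0.057 without TG sham replicate 3) and by 0.77 in ntg hearts (adjusted p = 0.018). In ntg hearts the Ms4a7 call was lost without ntg sham replicate 1 or 2 (up to 0.0836), and in TG hearts those of Mpeg1 without TG sham replicate 2 or 3 (up to 0.144) and of Laptm5 without either of these or TG TAC replicate 2, 4 or 5 (up to 0.259, at values of 0.18 to 0.48).

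Trem2 had the largest increase of the 35 in ntg hearts. It had 2.18, 2.53 and 5.93 CPM in TG TAC hearts, against 1.54, 1.69 and 1.08 CPM in TG sham hearts, and rose by 1.09 (SE 0.31, adjusted p = 0.0231, and up to 0.0961 without any 1 of the TG sham hearts). In ntg TAC hearts it had 2.75, 4.15 and 5.46 CPM, against 1.25, 0.432 and 1.45 CPM in ntg sham hearts, and rose by 1.96 (SE 0.35, adjusted p = 0.000513). The sham levels rest on 12 to 28 reads per library in TG hearts and 4 to 16 reads in ntg hearts. Gpnmb rose by 1.04 in TG hearts (adjusted p = 0.0142, and 0.078 without TG sham replicate 3), with 1.54, 1.62 and 0.809 CPM in TG sham hearts, and was not called in ntg hearts, with 2.11, 2.05 and 1.63 CPM in ntg sham hearts.

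Ptprc rose by 0.67 in TG hearts (adjusted p = 0.00513), and Mrc1 by 0.33 (adjusted p = 0.0471), a call that was lost without any 1 of the TG sham hearts or without TG TAC replicate 1, 2, 3 or 5 (up to 0.154), and under 5 of 6 other settings (up to 0.114). Cx3cr1 rose 2.01-fold in ntg hearts, with 12.2 ± 2.74 CPM in ntg TAC and 6.09 ± 0.755 CPM in ntg sham hearts (SD, n = 7 and 3). Aif1, Fcgr1 and H2-Eb1 rose by 0.98, 0.91 and 0.89 in ntg hearts. Each of these 3 calls was lost without any 1 of the ntg sham hearts, that of Fcgr1 also without ntg TAC replicate 1, 3, 5 or 7 (adjusted p up to 0.122, 0.165 and 0.154).

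Ccl6 fell with TAC in both genotypes, by 0.91 in TG hearts (SE 0.19, adjusted p = 0.0038) and by 1.15 in ntg hearts (SE 0.18, adjusted p = 0.000194). Its levels were 5.90 to 10.2 CPM in TG TAC hearts, against 11.6 to 17.3 CPM in TG sham hearts, and 9.21 to 16.6 CPM in ntg TAC hearts, against 20.4 to 30.5 CPM in ntg sham hearts, without overlap in either genotype. In the list of chemokines and growth factors that are no members, 1 of 12 tested genes rose and 1 fell in each genotype. Of all genes 6.57% rose and 6.56% fell in TG hearts, and 8.41% and 9.31% in ntg hearts. Ccl9 fell by 0.79 in TG (adjusted p = 0.00206) and 0.65 in ntg hearts (adjusted p = 0.00453). The Csf1r ligand Csf1 rose by 0.61 in ntg hearts (adjusted p = 0.00233) and was at 0.07 in TG hearts (adjusted p = 0.764). The chemokine Ccl8 rose by 1.33 in TG hearts (adjusted p = 0.0457) and was at 1.14 in ntg hearts (adjusted p = 0.0695). Lyve1 fell by 1.22 in ntg hearts (SE 0.15, adjusted p = 2.2e-05), to 17.2, 19.5 and 25.7 CPM in ntg TAC hearts, against 44.4, 35.6 and 59.8 CPM in ntg sham hearts. In TG hearts Lyve1 was not called, at -0.47. The lymphatic genes Prox1 (-0.09, adjusted p = 0.669) and Flt4 (-0.06, adjusted p = 0.653) were not called in ntg hearts, while Reln fell by 0.53 (adjusted p = 0.0118). Ccl2 fell by 0.78 in TG hearts (adjusted p = 0.0243), a call that was lost without TG sham replicate 1 or 2 (up to 0.145).

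With the adipocyte level as a covariate 4 of the 10 members were called higher in ntg hearts, Csf1r, Laptm5, Cd68 and Trem2, and Lyve1 and Ccl6 were called lower. Ms4a7 was then at 0.34 (adjusted p = 0.541), while Cx3cr1, no longer called (adjusted p = 0.105), stayed at 0.90 or above under every setting. The adipocyte level was 0.9989 to 3.409 in ntg TAC and 4.335 to 4.573 in ntg sham hearts, without overlap. Among ntg hearts this covariate therefore cannot be told apart from the operation. In a fit of these 2 groups alone 16 members rose in ntg hearts, and in TG hearts 5 rose and 1 fell. The collagen genes Col1a1, Col1a2 and Col3a1 and the matrix gene Postn, all made by fibroblasts, rose in both genotypes, and the 8 fibroblast genes summed to 1464 to 3263 CPM in TG TAC hearts, against 1151 to 1215 CPM in TG sham hearts, and to 2077 to 3040 CPM in ntg TAC hearts, against 1243 to 1481 CPM in ntg sham hearts. The part of these cells, of adipocyte RNA and of sex-linked RNA in the members' increase was not tested.

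In the Ago2-bound libraries few members were called. Rn45s, the precursor of ribosomal RNA, took 48.5% to 62.3% of the counts there, and it stays in the total on which CPM are computed. In TG TAC against ntg TAC hearts 1 member rose and 2 fell (7.78% and 7.46% of 13451 genes), and the median over the members was 0.03, against 0.006 over all genes. The count of members that fell was 1 without ntg TAC replicate 3. Cx3cr1 had 2.49, 4.09 and 5.79 CPM in TG TAC hearts, against 5.99, 8.31 and 11.8 CPM in ntg TAC hearts, with no overlap, and fell by 1.13 (SE 0.19, adjusted p = 8.94e-05). Ccr2 had 1.02, 1.56 and 1.98 CPM in TG TAC hearts, against 1.81, 2.65 and 3.95 CPM in ntg TAC hearts, and fell by 0.86 (SE 0.25, adjusted p = 0.0169, and 0.0573 without ntg TAC replicate 3). C1qb had 8.23, 10.7 and 13.5 CPM in TG TAC hearts, against 5.18, 8.20 and 9.48 CPM in ntg TAC hearts, and rose by 0.46 (SE 0.13, adjusted p = 0.0136).

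Lyz2 and Cd68, which fell in mRNA, were not called in Ago2-bound RNA. Lyz2 had 11.7, 15.6 and 19.8 CPM in TG TAC hearts, against 7.33, 14.1 and 16.8 CPM in ntg TAC hearts, a difference of 0.19 (SE 0.14, adjusted p = 0.397). Cd68 had 2.67, 3.96 and 4.42 CPM in TG TAC hearts, against 2.93, 3.70 and 4.94 CPM in ntg TAC hearts, a difference of -0.009 (SE 0.17, adjusted p = 0.982). The ranges overlapped in both. Set against mRNA in 1 model over all 40 libraries, the Ago2-bound change of C1qb exceeded its mRNA change by 0.64 (SE 0.15, adjusted p = 0.0148), the 1 member called (0.682% of all genes were called higher and 0.264% lower). With the heart as a replicate block, which pairs both libraries of an animal, 2 members were called, C1qb (adjusted p = 0.0267) and Lyz2 (0.63, adjusted p = 0.0385), and without the block Lyz2 was at 0.61 with an adjusted p of 0.0583. The Ago2-bound change less the mRNA change was positive in 29 of 35 members, with a median of 0.231 over the members and 0.006 over all genes. Of the members 19 are shorter than 1500 bases. Over all genes of that length the median change was 0.203 in Ago2-bound RNA and 0.031 in mRNA. The count was 0 without ntg TAC replicate 4 or TG TAC replicate 3 or 7, and 2 without ntg TAC replicate 3 or 7 or TG TAC replicate 2 or 6.

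**Figure D4:**
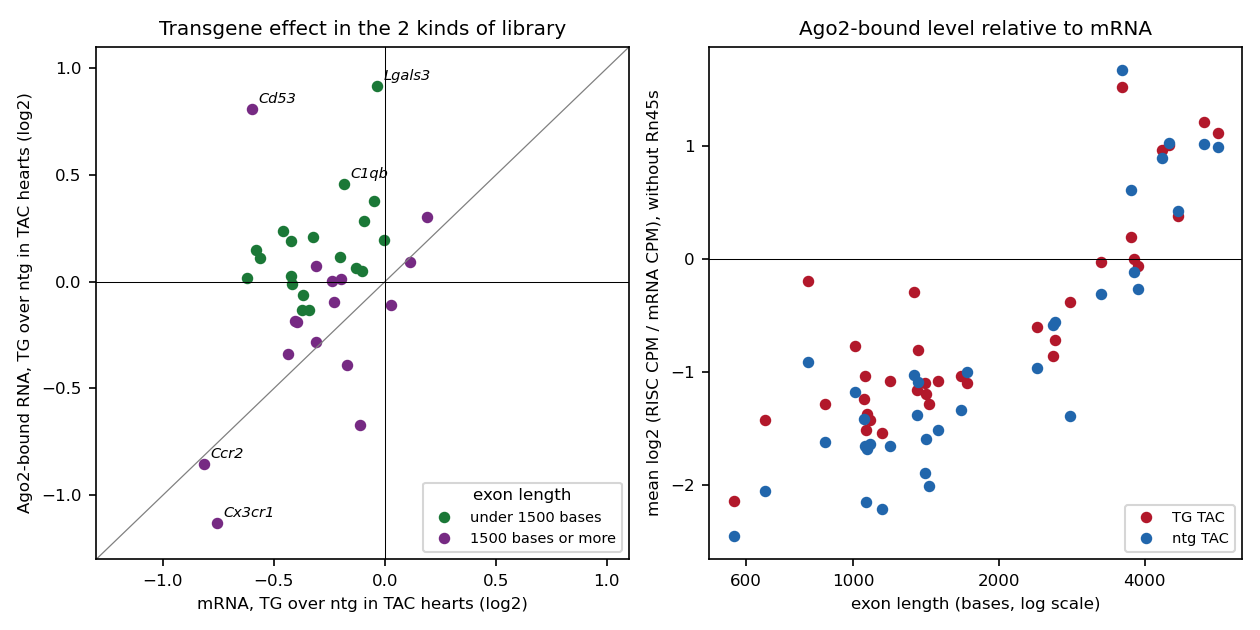
Left, log2 fold change TG over ntg in TAC hearts for the 35 members in mRNA (horizontal) and Ago2-bound RNA (vertical), with exon length under 1500 bases in green and longer in purple, and the line of equal change. Right, mean log2 ratio of Ago2-bound to mRNA CPM, computed without Rn45s, against exon length on a log axis for TG TAC and ntg TAC hearts. Of the 19 green points 15 lie above 0 on the vertical axis, and the ratio is higher in longer members.

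Transcript length moved with these values. Across the 35 members, the log2 ratio of Ago2-bound to mRNA level correlated with log2 exon length, with r = 0.851 in TG TAC and 0.873 in ntg TAC hearts (n = 35 genes from the same libraries, as a description). Ptprc, with 5666 bases of exon, had a mean ratio of 1.12 in TG TAC and 0.99 in ntg TAC hearts, and Tyrobp, with 566 bases, -2.14 and -2.45 in the same groups. Each gene's Ago2-bound log2 level was also taken as the deviation from its mean over all Ago2-bound libraries. The slope of these deviations on log2 exon length was -0.107 to 0.0128 in TG TAC and 0.0191 to 0.125 in ntg TAC hearts. These ranges did not overlap. The slope describes a difference between libraries and not how the level itself depends on length. Of the 19 members under 1500 bases, 15 had a positive Ago2-bound fold change, with a median of 0.12, against 0.20 over all genes of that length. The 16 longer members had a median of -0.15, against -0.02 over all. With the slope as a covariate 0 members were called in either direction: Cx3cr1 was then at -0.87 (adjusted p = 0.185), Ccr2 at -1.14 (adjusted p = 0.228) and C1qb at 0.24 (adjusted p = 0.74). Since the slopes of the TAC groups did not overlap, this covariate cannot be told apart from the genotype among TAC hearts.

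In sham hearts the Ago2-bound libraries gave 0 members in either direction between genotypes in edgeR and in DESeq2, with 1 higher and 3 lower at an unadjusted p below 0.05 (2.71% and 3.1% of all genes were called higher and lower). The difference of the transgene effect between operations gave 0 called in both tools, with 1 higher and 2 lower at an unadjusted p below 0.05 (0.32% of all genes were called higher and 0.0223% lower). Ago2-bound relative to mRNA gave 0 in sham hearts in both tools, with 5 higher and 0 lower at an unadjusted p below 0.05 (0.167% of all genes were called higher and 0.0765% lower).

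Between operations, the Ago2-bound libraries gave 5 members higher and 1 lower in TG hearts (4.72% and 3.84% of all genes), and 4 higher and 2 lower in ntg hearts (5.54% and 5.39% of all genes). Lyve1 fell in both, by 0.88 in TG hearts (adjusted p = 0.00462, and 0.0517 without TG sham replicate 3) and by 1.08 in ntg hearts (adjusted p = 0.000408). Its Ago2-bound level was 3.46, 5.82 and 7.63 CPM in TG TAC hearts, against 10.9, 8.90 and 12.7 CPM in TG sham hearts, and 4.66, 6.03 and 8.49 CPM in ntg TAC hearts, against 12.3, 8.995 and 19.0 CPM in ntg sham hearts, with no overlap in either genotype. Cx3cr1 rose by 1.47 (adjusted p = 0.000408), Mpeg1 by 0.95 (adjusted p = 0.000228) and Csf1r by 0.66 (adjusted p = 0.00184) in ntg hearts, and Ccl6 fell by 1.29 (adjusted p = 0.0222, and up to 0.0831 without any 1 of the ntg sham hearts, which leaves 1 lower member). Laptm5 rose by 0.49 in ntg hearts (adjusted p = 0.0458), a call that was lost without any 1 of the ntg sham hearts or ntg TAC replicate 1, 5, 6 or 7 (up to 0.198), and under 4 of 7 other settings. With the length slope as a covariate Cx3cr1 and Lyve1 were still called in ntg hearts, while Mpeg1 was at 0.58 (adjusted p = 0.113), Csf1r at 0.39 (adjusted p = 0.272), Ccl6 at -0.62 (adjusted p = 0.656) and Laptm5 at 0.54 (adjusted p = 0.236). The slope was 0.0191 to 0.125 in ntg TAC and -0.0383 to -0.00652 in ntg sham hearts, without overlap. This covariate therefore cannot be told apart from the operation among ntg hearts. In TG hearts Laptm5, Csf1r and the 3 C1q genes rose. C1qc rose by 0.71 (adjusted p = 0.00694, and 0.0822 without TG sham replicate 2) and C1qb by 0.55 (adjusted p = 0.0349). The call of C1qb was lost without TG sham replicate 1 or 2 or TG TAC replicate 1, 3, 5 or 7 (up to 0.171), that of Laptm5 without TG sham replicate 2 or 3 (up to 0.117), that of Csf1r without either of these or TG TAC replicate 3, 4, 5 or 7 (up to 0.231), and that of C1qa without either of these or any TG TAC heart but replicate 2 (up to 0.256). Without TG sham replicate 2 the count of members that rose in TG hearts was 0, it was 2 without TG sham replicate 3 or TG TAC replicate 3, 5 or 7, and 3 without TG TAC replicate 1 or 4.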

How the data were processed

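The deposited counts are whole reads per gene from HTSeq, 1 file per library; TopHat2 2.0.10, Bowtie2, DESeq and edgeR and the build mm10 are named in the submitters' processing notes. Per the labels, libraries were single-end and not strand-specific. The rows for reads in no gene, or aligned more than once, were left out (on average 11.5% of mRNA and 4.09% of RISC reads). Gene counts came to 9.98 to 25.5 M per mRNA library and 7.55 to 25.4 M per RISC library. Genes were filtered with filterByExpr, scaled by TMM and tested with the robust quasi-likelihood F test of edgeR 4.0.16 (limma 3.58.1, R 4.3.3) with Benjamini-Hochberg adjustment over all genes tested, called below 0.05. All 20 libraries of a kind entered 1 fit, and all 40 the fit of RISC relative to mRNA. Alternatives were DESeq2 1.42.0 (Wald test), its size factors, no filter, the 2 groups alone, a replicate block, the adipocyte level or length slope as covariates, no Rn45s, and leaving out each heart. The adipocyte level is the mean log2(CPM + 0.5) of the adipocyte genes, and the length slope that of log2 CPM on log2 exon length. The scripts were tested on simulated data. Members and lists were chosen with earlier results of these data known. Part of the list of chemokines and growth factors is not reported here. Values by heart are given for up to 6 members with the lowest adjusted p in each of 5 comparisons, those called in an interaction or in RISC relative to mRNA, and 13 chosen for their role. Both libraries of a number come from the same heart (median correlation of deviations 0.146 to 0.21 over groups). The main joint fit did not use this pairing and treated both libraries of a heart as independent. Only the alternative with the heart as a replicate block paired them. P-values measure the spread between these hearts, and in the main joint fit the spread between libraries of a group.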

Additional observations from a re-analysis of the deposited data

Results flagged for a closer look

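In 140 groups of 7 hearts (35 genes, both genotypes after TAC, both library kinds), 10 held 1 heart that stood apart from the other 6, by a gap of more than 0.568 of the group's range (Dixon's 95% value). Chance flags about 1 in 20 groups.

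In mRNA, Ptprc stood at 6.623 CPM in TG TAC replicate 6, with the next heart at 5.574 CPM, and at 4.814 CPM in ntg TAC replicate 3, the lowest, with the next at 6.049 CPM. Trem2 stood at 5.932 CPM in TG TAC replicate 4, with the next heart at 3.455 CPM.

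In Ago2-bound RNA, Ccl2 stood at 1.697 CPM in TG TAC replicate 5 (next 0.8309 CPM). In ntg TAC replicate 5, Csf1r stood at 49.76 CPM (next 35.51), Cd163 at 23.74 CPM (next 13.77), C1qc at 18.51 CPM (next 14.47) and Aif1 at 1.96 CPM (next 0.8426). In ntg TAC replicate 6, C1qa stood at 14.57 CPM (next 9.947), and in ntg TAC replicate 7, Sfpi1 stood at 2.997 CPM (next 1.423). The libraries of ntg TAC replicates 5 and 6 were the shallowest of the Ago2-bound ones, at 8.594 and 7.55 M counts, and the part of depth in these values was not tested.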

How the results depend on the processing

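No value changed sign while called under any alternative run. The 16 members lower in TG TAC mRNA numbered 14 to 18 without single hearts. In sham mRNA the 8 lower members were 5 in a fit of the 2 groups alone, 1 with the adipocyte covariate and 6 to 11 without single hearts. For TAC against sham mRNA, ntg hearts had 10 higher, which became 16 in the 2-group fit, 4 with the adipocyte covariate and 6 to 10 without single hearts, and 2 to 3 lower without single hearts. TG hearts had 9 higher and 2 lower, which became 5 and 1 in the 2-group fit, and 4 to 12 and 1 to 3 without single hearts. In Ago2-bound RNA, TG against ntg TAC gave 1 higher and 2 lower, and 0 and 0 with the length slope, with 1 to 3 lower without single hearts. TAC against sham gave 4 higher and 2 lower in ntg hearts, which became 1 and 1 with the length slope, with 3 to 5 higher and 1 to 2 lower without single hearts, and 5 higher in TG hearts, with 0 to 7 higher and 0 to 1 lower. For RISC relative to mRNA in TAC the count of 1 became 2 with DESeq2, and 0 to 2 without single hearts. The cause of these moves was not tested, except that single-heart and 2-group fits hold fewer samples. Nothing in the labels says that a number shared across genotypes marks a shared litter or day. The median correlation of deviations of same-numbered hearts was -0.0275 in sham and -0.00488 in TAC mRNA, and 0.0882 in sham and 0.123 in TAC Ago2-bound RNA, where 4 of 7 pairs were over 0.1. With a replicate block on the number, 15 members were lower in TG TAC mRNA and 8 in sham, and Ago2-bound RNA of TG TAC against ntg TAC had 1 higher and 3 lower; across operations, a pairing chosen after seeing the data, Ago2-bound RNA had 1 lower in ntg and 3 higher in TG hearts, and mRNA 7 higher and 2 lower in each genotype. With the heart as the replicate block, RISC relative to mRNA had 2 higher. Genes with few reads, such as Ccr2, Cd53 and Trem2, and groups of 3 sham hearts limit what could be detected.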
